A study of Homo sapiens with 32 samples.

Results

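Head-to-head bidirectional promoters were defined here as pairs of protein-coding genes of the GENCODE 44 annotation (genome build hg38) that lie on opposite strands and point away from each other, with the 5′ end of the minus-strand gene 0 to 1000 bp to the left of the 5′ end of the plus-strand gene. On chromosomes 1 to 22 and X, 887 gene combinations met this rule, and keeping the nearest partner of each gene left 825 pairs. They hold 1650 of the 19970 protein-coding genes on these chromosomes (8.26%). No binding measurement entered the choice. The comparison set was 18209 other protein-coding 5′ ends whose windows overlap no pair.

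The study used chromatin immunoprecipitation with sequencing (ChIP-seq), which recovers the DNA bound by a protein with an antibody, in HEK293T cells, an established human embryonic kidney line. The source was 1 clone, HEK_CloneZD29, in which ZNF143 carries a dTAG degron, a tag through which the small molecule dTAGV-1 marks the protein for destruction. The 32 samples formed 10 groups, 5 precipitations each from cells without treatment and from cells after 30 minutes in 50 nM dTAGV-1. A group held 2 samples for ZNF143, recovered by its HA tag, and for the mock precipitation, and 4 samples for each of the other 3 factors (SP1, NRF1, YY1). Each group carried the degron, so no cells with unmodified ZNF143 entered. Labels say nothing on whether samples of a group came from separate cultures.

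The measurements were 4 deposited lists, 1 per antibody, of the summits of called peaks, where the signal of a peak was highest. On the chromosomes used they held 16165 ZNF143, 126181 SP1, 39180 NRF1 and 106578 YY1 summits. No list gives a value per sample, so treated and untreated cells were not compared and the read depth behind a list is unknown. The lists differ in length, so shares of occupied promoters show how 1 factor differs between kinds of promoter, and not which factor binds more. Intervals below are 95% intervals over promoters, or over copies of letters where stated, and cover counting error only. Promoters are not replicates of a condition, and no p-value is given.

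A head-to-head arrangement places a single short stretch of DNA upstream of both genes, so factors bound there can serve transcription in either direction. Such promoters are common in mammalian genomes, tend to be CpG islands without a TATA box, and often drive housekeeping genes of DNA repair, mitochondria and RNA metabolism. ZNF143 is a zinc finger activator of protein-coding and small RNA genes, SP1 binds GC boxes, NRF1 is known for genes of mitochondrial function, and YY1 binds near and just inside the start of many genes.

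The pairs lay close together. The distance between the 5′ ends ranged from 1 to 995 bp, with quartiles of 69, 129 and 240 bp. It was at most 100 bp in 322 pairs, above that and up to 200 bp in 240, up to 400 bp in 166 and up to 1000 bp in 97. With 250 bp added on each side, the median region was 630 bp long. Chromosome 1 held 74 pairs, chromosome 19 held 67 and chromosome 21 held 6. Just inside the limit of 1000 bp stood PSMB1/TBP at 995 bp, with summits of all 4 factors, and MS4A6A/MS4A4A at 991 bp, with none. Just outside stood TXNDC12/BTF3L4 at 1008 bp, with all 4, and TNNC1/NISCH at 1077 bp, with none. Throughout, the minus-strand gene is named first.

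The DNA between the 5′ ends of 7 pairs is shown because these pairs carry the highest scores of a factor or are textbook examples. Each is the plus strand of hg38, 5′ to 3′, starting 1 base right of the minus-strand gene's 5′ end. Capitals mark letters found on either strand: CCCANNATG for ZNF143, ACTACA, which often stands beside it in ZNF143 sites, GGGCGG for SP1, GCGCATGCG or its half-site TGCGCA for NRF1, AANATGGCG for YY1, CCGGAAG for factors of the ETS family, and CCAAT and TATAAA. A copy on the minus strand appears as its reverse complement. A match is a description of the letters and not evidence of a bound site.

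The following 3 stretches carried ZNF143 summits in the top 0.25% of its list. They are the stretch of RANBP10/TSNAXIP1 at chr16:67806561-67806764, that of CCDC163/MMACHC at chr1:45500080-45500299 and that of CALR3/C19orf44 at chr19:16496168-16496393.
RANBP10/TSNAXIP1: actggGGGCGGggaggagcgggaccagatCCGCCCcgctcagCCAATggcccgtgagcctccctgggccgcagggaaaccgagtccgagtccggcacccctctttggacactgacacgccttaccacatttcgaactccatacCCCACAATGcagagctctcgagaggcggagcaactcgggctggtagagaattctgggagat
CCDC163/MMACHC: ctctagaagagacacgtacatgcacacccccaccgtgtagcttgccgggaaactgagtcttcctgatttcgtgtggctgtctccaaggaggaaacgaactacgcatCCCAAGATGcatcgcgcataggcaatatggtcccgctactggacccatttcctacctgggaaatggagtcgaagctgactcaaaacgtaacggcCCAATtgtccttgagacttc
CALR3/C19orf44: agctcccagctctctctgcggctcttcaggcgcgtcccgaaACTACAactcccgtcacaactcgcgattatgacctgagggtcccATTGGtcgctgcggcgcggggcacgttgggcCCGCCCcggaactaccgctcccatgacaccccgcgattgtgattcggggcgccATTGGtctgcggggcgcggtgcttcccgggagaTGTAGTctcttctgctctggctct
The first holds 1 copy of the ZNF143 letters, the second 1 copy, and the third none of those letters but 2 copies of ACTACA. In CCDC163/MMACHC the summit lay 5 bp from the centre of the copy, and in RANBP10/TSNAXIP1 it lay 30 bp away.

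The next 3 stretches carried the highest SP1, NRF1 and YY1 scores among the pairs. They are TEPSIN/NDUFAF8 at chr17:81239092-81239304 for SP1, TUBD1/RPS6KB1 at chr17:59892946-59893045 for NRF1 and UFD1/CDC45 at chr22:19479203-19479456 for YY1.
TEPSIN/NDUFAF8: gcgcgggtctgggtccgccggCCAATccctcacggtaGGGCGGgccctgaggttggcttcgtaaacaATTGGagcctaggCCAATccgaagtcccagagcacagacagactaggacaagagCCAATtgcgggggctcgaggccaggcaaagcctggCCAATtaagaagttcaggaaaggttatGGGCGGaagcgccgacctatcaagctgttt
TUBD1/RPS6KB1: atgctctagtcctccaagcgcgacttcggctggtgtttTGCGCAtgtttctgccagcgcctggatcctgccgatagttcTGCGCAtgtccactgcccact
UFD1/CDC45: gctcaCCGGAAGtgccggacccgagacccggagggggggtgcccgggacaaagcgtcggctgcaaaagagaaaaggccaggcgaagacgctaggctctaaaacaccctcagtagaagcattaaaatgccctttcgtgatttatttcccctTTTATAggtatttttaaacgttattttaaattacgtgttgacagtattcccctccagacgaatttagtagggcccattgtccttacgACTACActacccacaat
TUBD1/RPS6KB1 shows 2 half-sites of NRF1 and no full copy. The stretch of UFD1/CDC45 holds no full copy of the YY1 letters, and its YY1 summit lay 83 bp inside CDC45. One copy of the ZNF143 letters begins 8 bp before the 5′ end of CDC45 and ends on it, so its last base falls outside the stretch shown.

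PPAT/PAICS, at chr4:56435616-56435740, is shown as a textbook pair.
PPAT/PAICS: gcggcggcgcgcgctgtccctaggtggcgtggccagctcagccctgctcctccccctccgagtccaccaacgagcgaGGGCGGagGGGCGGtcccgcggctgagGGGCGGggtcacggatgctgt
PPAT and PAICS encode enzymes of purine synthesis. The stretch holds 3 copies of the SP1 letters, while the pair's highest SP1 summit lay 176 bp inside PAICS, counted from its outermost 5′ end. The ends of this pair lie 126 bp apart here and 645 bp apart by canonical transcripts.

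Occupancy was compared in windows of equal width, 250 bp to either side of the 5′ end of the plus-strand gene of each pair and of each other 5′ end. Since the upper quartile of the distance was 240 bp, most windows of pairs also held the second gene's 5′ end. A window was called occupied by a factor if a summit of its list fell in it. ZNF143 occupied 484 of 825 pairs (58.7%, 55.3 to 62.0) and 4184 of 18209 other ends (23.0%, 22.4 to 23.6). Over pairs and other ends together, ZNF143 occupied 24.5% of the windows. The share was 35.7 percentage points higher in pairs (32.2 to 39.1).

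The other factors showed differences of the same order. SP1 occupied 696 pairs (84.4%) against 48.4% of other ends, a difference of 35.9 points (33.2 to 38.3), with 50.0% of all windows occupied. NRF1 occupied 585 pairs (70.9%) against 36.7% of other ends, a difference of 34.2 points (31.0 to 37.3), with 38.2% of all windows occupied. YY1 occupied 645 pairs (78.2%) against 45.7% of other ends, a difference of 32.5 points (29.5 to 35.3), with 47.1% of all windows occupied. These 4 intervals overlap, and the factors were not tested against each other.

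Pairs also collected the factors together. All 4 factors stood in 360 pair windows (43.6%) and in 16.5% of other ends, against 17.7% of all windows, a difference of 27.1 points (23.7 to 30.5). No factor stood in 68 pair windows (8.24%) and in 44.8% of other ends, against 43.2% of all windows, a difference of -36.5 points (-38.4 to -34.3). Between these extremes, 55 pair windows held 1 factor, 111 held 2 and 231 held 3. The commonest set of 3 was SP1, NRF1 and YY1 without ZNF143, in 131 pairs (15.9%). ZNF143 stood alone in 6 pairs (0.727%). With windows of 100 bp either side, the difference for all 4 factors shrank to 6.09 points. A summit lay within 250 bp of both 5′ ends in 427 pairs for ZNF143, in 648 for SP1, in 521 for NRF1 and in 574 pairs for YY1, but the windows of the closer pairs overlap. Among the 66 pairs whose ends lie more than 500 bp apart, ZNF143 stood at both ends of 9, at the plus-strand end alone of 13, at the minus-strand end alone of 14 and at neither of 30.

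Head-to-head pairs were richer in CpG than other ends. A window was called CpG-rich with a GC content of at least 55% and an observed/expected CpG ratio of at least 0.65. This held for 656 pair windows (79.5%) and 50.8% of other ends, a difference of 28.7 points (25.7 to 31.4). Among the CpG-rich windows alone, ZNF143 occupied 62.7% of pairs and 38.7% of other ends, a difference of 23.9 points (20.0 to 27.7). The same difference was 12.0 points for SP1 (9.23 to 14.4), 15.7 for NRF1 (12.2 to 18.8) and 8.12 for YY1 (4.85 to 11.0). The ZNF143 interval did not overlap those of the other 3 factors, but the lists differ in length, and the part of length within CpG-rich windows was not tested. Outside CpG-rich windows, ZNF143 stood at 73 of 169 pairs (43.2%) and at 602 of 8955 other ends (6.72%). The same shares were 67.5% and 19.3% for SP1, 44.4% and 10.4% for NRF1, and 64.5% and 16.9% for YY1. There the gap between pairs and other ends was wider for SP1 and YY1 than for ZNF143. Among these other ends the ZNF143 share was 19.1% at those with a divergent noncoding RNA and 22.4% at those of overlapping head-to-head coding genes. Whether the genes of either kind are transcribed in these cells was not measured here.

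Other ends were next divided by their neighbour. A long noncoding RNA (lncRNA) gene began 0 to 1000 bp upstream on the opposite strand at 1413 of them, and 952 belonged to head-to-head coding genes whose 5′ ends overlap. Divergent lncRNA ends were CpG-rich more often than pairs (85.6%). ZNF143 occupied 39.4% of them, 19.2 points fewer than pairs (15.0 to 23.4). The pairs were also higher by 9.97 points for NRF1 (5.91 to 13.9), 6.59 for SP1 (3.22 to 9.81) and 5.15 for YY1 (1.44 to 8.73). Restricted further to CpG-rich windows, the ZNF143 difference from divergent lncRNA ends was 19.8 points (15.1 to 24.4), and the YY1 difference of 2.22 points (-1.60 to 5.87) included 0. The NRF1 difference of 10.9 points (6.68 to 15.0) and the SP1 difference of 4.60 (1.31 to 7.69) left out 0. At overlapping head-to-head ends ZNF143 occupied 419 windows, with an interval for the share of 40.9 to 47.2%. Among CpG-rich windows ZNF143 stood at 53.6% of these overlapping ends (49.8 to 57.4), nearer to the 62.7% of pairs (58.9 to 66.3) than the 42.8% of divergent lncRNA ends.

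**Figure D1:**
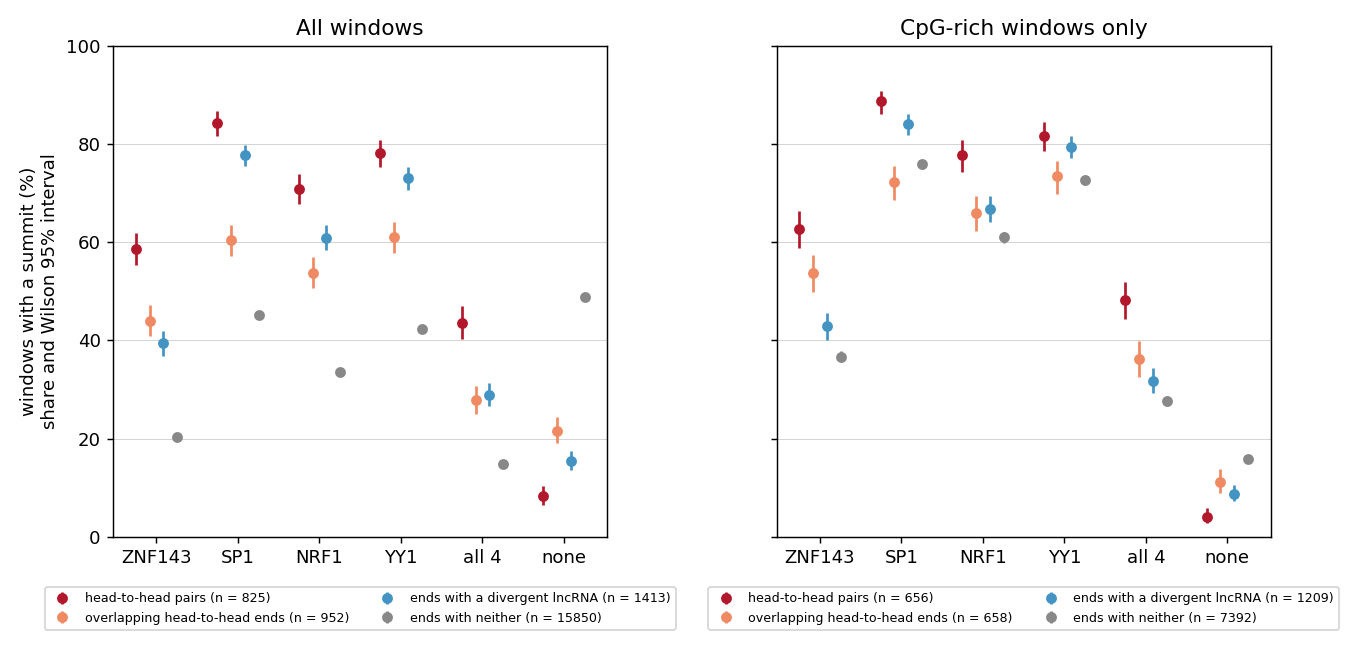
Share of windows of 250 bp to either side of the 5′ end (%, with Wilson 95% intervals) that hold a summit of each factor, of all 4 and of none, for head-to-head pairs and 3 kinds of other 5′ end, in all windows (left) and CpG-rich windows (right). For ZNF143 the pairs stand at 58.7% (left) and 62.7% (right), above each other kind, and the kinds lie closer together for YY1 among CpG-rich windows.

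The pairs were also compared at promoters that already held the other 3 factors, a condition added after the data were seen. With SP1, NRF1 and YY1 present, ZNF143 stood in 360 of 491 pairs (73.3%) and in 55.3% of 5442 other ends, 18.0 points more in pairs (13.7 to 21.9). Asked the same way, the difference was 1.13 points for SP1 (-1.16 to 2.56), 1.25 for NRF1 (-2.63 to 4.57) and -0.575 for YY1 (-3.66 to 1.74), and each of these intervals included 0. However, the other ends already stood at 96.2% for SP1, 83.9% for NRF1 and 93.6% for YY1. A difference as large as that of ZNF143 could therefore not arise for them, and these values do not set ZNF143 apart. The ZNF143 list is the shortest, and the result changed when the other lists were cut to its length. That cut left the ZNF143 list whole and kept only windows with stronger summits of the other factors, 2435 other ends for ZNF143. List length and summit strength can therefore not be told apart here. With each list cut to its 16165 highest scores, the difference was 6.05 points for ZNF143 (1.00 to 10.4), 5.58 for SP1 (0.596 to 9.82), 1.13 for NRF1 (-4.01 to 5.68) and 2.52 for YY1 (-2.13 to 6.29). At equal length the intervals of ZNF143 and SP1 overlapped over most of their range. In CpG-rich windows with the full lists, the ZNF143 difference was 18.1 points (13.5 to 22.3).

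**Figure D2:**
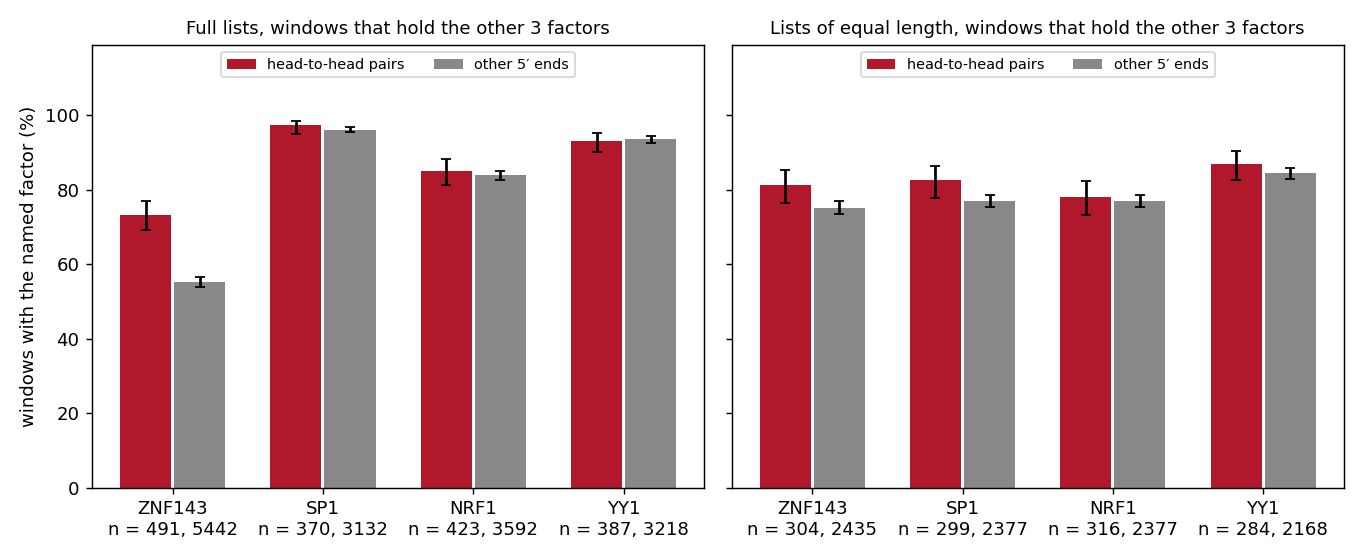
Share of windows with the named factor (bars, %, with Wilson 95% intervals) among windows that hold the other 3 factors, for head-to-head pairs and other 5′ ends, with the full lists (left) and with each list cut to its 16165 highest scores (right), and n for pairs and other ends under each factor. ZNF143 stands at 73.3% and 55.3% on the left and at 81.3% and 75.2% on the right.

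Summit scores were higher in pairs as well. The score is a −log10 p-value or q-value, so it was ranked within its own list, and among occupied windows the percentile of the highest summit was taken. The median percentile for ZNF143 was 72.0 in pairs (quartiles 42.5 and 90.7) and 61.7 in other ends (34.6 and 86.9). For SP1 the medians were 92.4 and 88.1, for NRF1 85.8 and 81.5, and for YY1 93.8 and 88.3. The quartile ranges of pairs and other ends overlapped for each factor. The top 1% of the ZNF143 list reached 25 pairs (3.03%) and 82 other ends (0.450%) in equal windows, a difference of 2.58 points (1.60 to 3.99). In equal windows the top 1% of the YY1 list reached 89 pairs (10.8%) and 3.54% of other ends, a difference of 7.25 points (5.29 to 9.56).

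Location within the pair separated YY1 from the other 3 factors. Over the whole region of the rule, the span between the ends and 250 bp to either side, a summit of ZNF143 stood in 552 pairs (66.9%), SP1 in 751 (91.0%), NRF1 in 664 (80.5%) and YY1 in 727 (88.1%). All 4 factors stood in 58.2% of the regions and none in 6.06%. The highest SP1 summit lay between the ends in 434 of its 751 pairs (57.8%, 54.2 to 61.3), where the stretch between the ends made up 23.8% of the region length. For NRF1 this was 50.8% (47.0 to 54.5) and for ZNF143 44.7% (40.6 to 48.9), with 24.2% and 23.6% of the length. For YY1 it was 20.8% (18.0 to 23.9), below that of each other factor and close to the 23.7% of the length. The median distance of the highest summit from the midpoint was 52.5 bp for SP1, 74.3 bp for NRF1, 78.5 bp for ZNF143 and 152 bp for YY1.

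YY1 was also the factor found inside both genes of a pair. Summits lay inside both genes in 186 of 727 YY1 pairs (25.6%, 22.5 to 28.9), in 37 of 664 NRF1 pairs (5.57%), in 28 of 751 SP1 pairs (3.73%) and in 22 of 552 ZNF143 pairs (3.99%). The YY1 interval did not overlap that of any other factor, although the YY1 list is longer than those of ZNF143 and NRF1, and the part of list length was not tested. Regions with at least 2 summits of a factor numbered 243 for YY1, 95 for NRF1, 87 for SP1 and 50 for ZNF143. No factor leaned far to 1 gene: the highest ZNF143 summit lay on the side of the minus-strand gene in 270 pairs and of the plus-strand gene in 279, and for YY1 the numbers were 384 and 341.

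**Figure D3:**
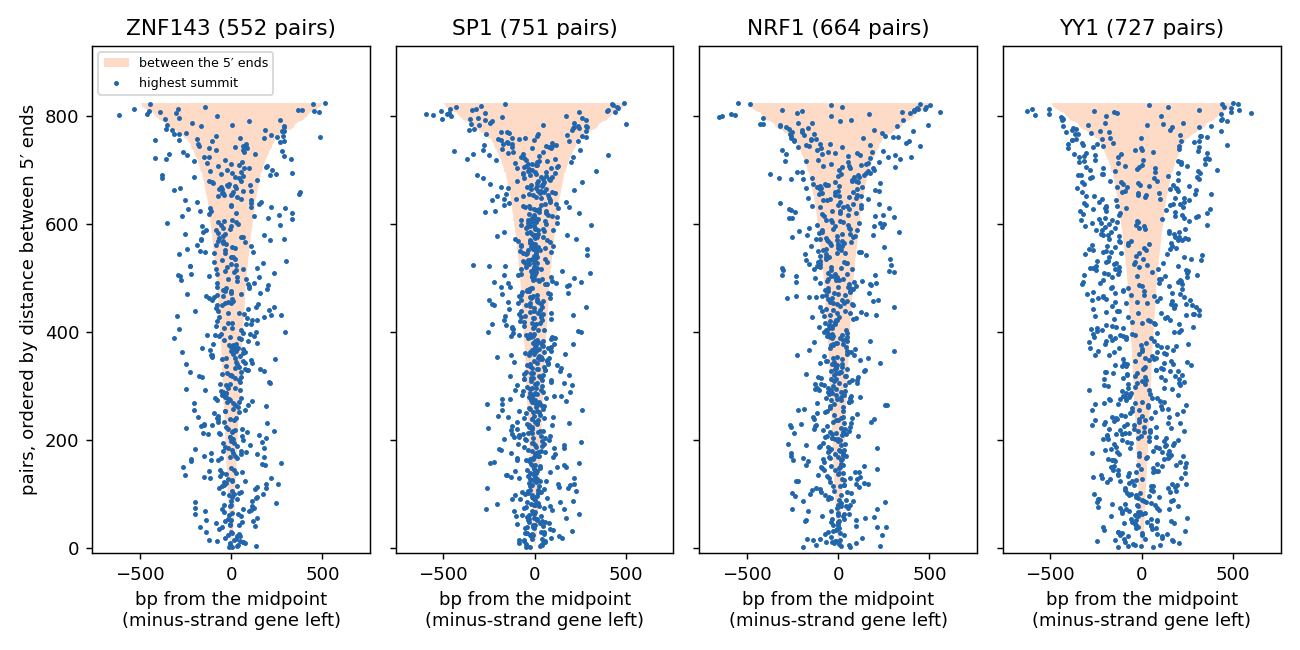
Position of the highest summit of each factor in each pair (bp from the midpoint, minus-strand gene on the left), with pairs ordered by the distance between their 5′ ends and the stretch between the ends shaded. SP1 summits cluster inside the shading (57.8% between the ends), and YY1 summits mostly fall outside it on either side (20.8% between the ends).

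Seen from 1 gene, the highest summit lay upstream more often in pairs than at other ends as a whole, and against divergent lncRNA ends this held at both ends of a pair for YY1 alone. In occupied windows the highest ZNF143 summit lay upstream of the plus-strand 5′ end in 66.5% of pairs and upstream of the 5′ end in 56.5% of other ends, a difference of 10.0 points (5.46 to 14.4). For SP1 it was 77.0% against 65.0% (12.0 points, 8.61 to 15.2), and for NRF1 73.2% against 60.4% (12.7 points, 8.80 to 16.3). YY1 was the factor with fewer than 50% upstream, with 46.8% of pairs against 35.8% of other ends (11.0 points, 7.08 to 15.0). Taken at the minus-strand 5′ end of each pair, the NRF1 difference was smaller, at 6.22 points (2.17 to 10.1), and the others were 11.1 for ZNF143, 9.05 for SP1 and 8.02 for YY1. Divergent lncRNA ends, a comparison added after the data were seen, held their highest summit upstream in 63.4% of windows with ZNF143 and 74.2% of those with SP1, and the shares were 66.3% (NRF1) and 37.0% (YY1). Against them the plus-strand ends of pairs differed by 3.15 points for ZNF143 (-2.66 to 8.91) and 2.85 for SP1 (-1.26 to 6.85), and both intervals included 0. The NRF1 difference was 6.84 points (2.01 to 11.6) at the plus-strand end and 0.348 (-4.60 to 5.23) at the minus-strand end. The YY1 difference was 9.81 points (4.96 to 14.6) and 6.78 (1.98 to 11.6) at these ends. The median ZNF143 summit lay 44.5 bp upstream in pairs, 34 bp upstream at divergent lncRNA ends and 17 bp upstream at other ends as a whole. The median YY1 summit lay 13 bp inside the plus-strand gene in pairs and 57 bp inside the gene at other ends. Within 100 bp of the end, the ZNF143 difference of 3.67 points and the YY1 difference of 4.18 points no longer left out 0.

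**Figure D4:**
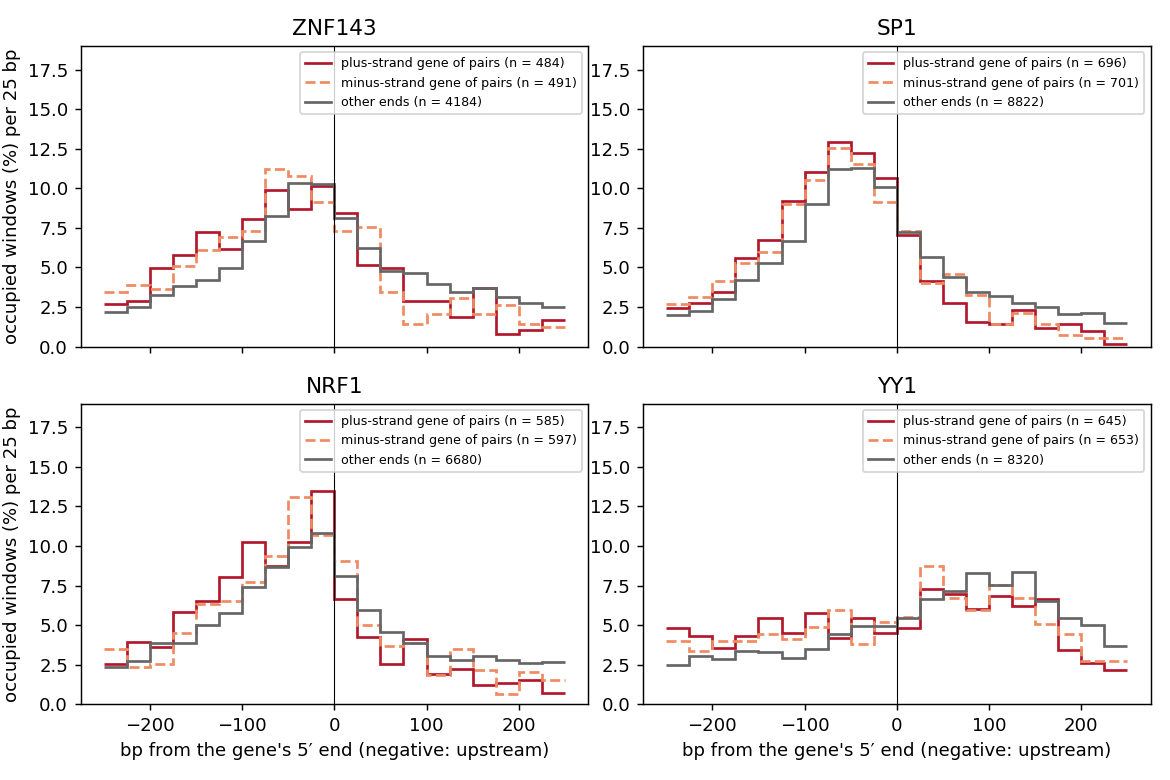
Share of occupied windows (%) by the distance of the highest summit from the 5′ end (25-bp bins, negative values upstream), for the plus-strand and minus-strand genes of pairs and for other ends. SP1, NRF1 and ZNF143 peak just upstream in each class, and YY1 is spread over the window with a broad maximum inside the gene at other ends.

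When 2 factors shared a window, ZNF143 and SP1 lay closest. In 460 pair windows with both, their highest summits lay a median of 38.5 bp apart, and 59.1% (54.6 to 63.5) lay within 50 bp. At other ends this share was 53.6% (52.0 to 55.1). NRF1 and YY1 lay a median of 114.5 bp apart in pairs, and 21.8% lay within 50 bp. ZNF143 and YY1 lay within 50 bp in 46.1% of the pair windows with both and in 47.2% of the other ends with both.

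The letters of the ZNF143 site did not follow its occupancy. CCCANNATG stood in 63 pair windows (7.64%) and in 7.64% of other ends, as in 7.64% of windows in all, with a difference of -0.008 points (-1.68 to 2.04). The ACTACA letters, added after the data were seen, stood in 17.5% of pair windows and 12.4% of other ends (5.09 points, 2.61 to 7.87). GGGCGG, the SP1 letters, stood in 80.4% of pairs and 60.9% of other ends, with 61.8% of windows in all, but among CpG-rich windows the difference was -2.85 points (-5.69 to -0.428). GCGCATGCG, the NRF1 letters, stood in 6.91% and 2.33%, with 2.53% of windows in all. AANATGGCG, the YY1 letters, stood in 9.82% and 5.04%, with 5.24% of windows in all.

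Letters of factors outside the study also differed. The ETS letters CCGGAAG stood in 257 pair windows (31.2%) against 13.7% of other ends and 14.4% of windows in all, a difference of 17.5 points (14.4 to 20.8). Among CpG-rich windows the ETS letters stood in 34.1% of pairs and 20.9% of other ends. TATAAA stood in 65 pair windows (7.88%) against 14.5% of other ends and 14.2% in all, a difference of -6.60 points (-8.33 to -4.50), and among CpG-rich windows that difference was -1.06 and included 0. CCAAT stood in 46.5% of pairs and 44.6% of other ends, with 44.7% in all, and this difference of 1.97 points (-1.48 to 5.46) included 0.

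Copies of a factor's letters were then matched with its own summits. Intervals in this paragraph are over copies, and several can share a window: the 98 NRF1 copies of pairs lay in 57 windows. These intervals are therefore too narrow. Of 70 copies of the ZNF143 letters in pair windows, 27 (38.6%) had a ZNF143 summit within 50 bp, against 234 of 1463 copies (16.0%) at other ends, a difference of 22.6 points (11.9 to 34.4). Among CpG-rich windows this difference was 5.83 points (-7.18 to 20.7) and included 0. For YY1, 67 of 85 copies in pairs (78.8%) and 55.5% of copies at other ends had a summit, a difference of 23.3 points (13.0 to 31.3), and 20.4 points (9.04 to 29.1) among CpG-rich windows. NRF1 copies had a summit about equally often, at 81.6% and 80.8%, with a difference of 0.835 points (-8.40 to 7.98). SP1 copies, short and frequent, had a summit within 50 bp at 23.5% in pairs and 19.1% at other ends. YY1 letters ran in the direction of the gene's strand in 55 of 85 copies at pairs (64.7%) and in 67.1% of copies at other ends.

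Single pairs show these arrangements. The highest ZNF143 score among the pairs stood at RANBP10/TSNAXIP1, which encode a Ran-binding protein and a translin-associated partner protein. Its ZNF143 score was 38279, in the top 0.0742% of the list, whose median was 13.0. That summit lay 27 bp before TSNAXIP1, with the SP1 summit 20 bp and the NRF1 summit 32 bp before the same end. The YY1 summit lay 14 bp inside RANBP10, in its exon. At CCDC163/MMACHC, whose second gene encodes an enzyme of vitamin B12 processing, the ZNF143 score was 30233, and the summits of all 4 factors lay between the ends.

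CALR3/C19orf44 had a ZNF143 score of 29895, and its 4 highest summits lay within 99 to 130 bp before C19orf44, inside an intron of a longer gene model that covers the stretch. VCPIP1/C8orf44-SGK3 reached 37572 for ZNF143 with no copy of the ZNF143 letters, and also 8512 for NRF1, in the top 1.51% of that list. NUDCD1/ENY2, with a subunit of the SAGA complex, reached 31440, with its ZNF143 summit 3 bp from the centre of a copy. So 3 of these 5 highest pairs held the letters in their region and 2 did not.

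The pairs with the highest scores of the other factors varied widely in ZNF143, whose median score over all occupied pairs was 42.4. TEPSIN/NDUFAF8, with an assembly factor of respiratory complex I, had an SP1 score of 6675 in the top 0.0309%, a YY1 score of 4654 and a ZNF143 score of 7.64. PMEL/RAB5B, a melanosome protein and an early endosome GTPase, had an SP1 score of 6326, with that summit 16 bp before RAB5B and 580 bp from PMEL. PPP1R13L/POLR1G, the second a subunit of RNA polymerase I, had 6440 for SP1 and 576 for ZNF143. TUBD1/RPS6KB1, delta-tubulin and the S6 kinase, had an NRF1 score of 25631 in the top 0.0179%, and its ZNF143 score of 2.64 was near the lowest in that list (2.00).

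NRF1 also stood high where no ZNF143 summit was listed. TMEM143/SYNGR4 had an NRF1 score of 20781 and LONP1/CATSPERD, whose first gene encodes a mitochondrial protease, one of 19909. CBX5/HNRNPA1, which encode a heterochromatin protein and a splicing regulator, had 16209 for NRF1 and 1208 for YY1, with neither ZNF143 nor SP1 listed. The NRF1 summit of CBX5/HNRNPA1 lay 5 bp before HNRNPA1, and the YY1 summit 133 bp past the 5′ end of HNRNPA1, in an intron.

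The highest YY1 score was at UFD1/CDC45, 30141, in the top 0.00281% of the list. CDC45 is part of the replicative helicase, and UFD1 acts in the extraction of ubiquitinated proteins. This pair also had a ZNF143 score of 19389, 27 bp inside CDC45. At LRRC41/UQCRH, the second a subunit of respiratory complex III, the YY1 score was 14415 with its summit 233 bp inside LRRC41. HCFC1/TMEM187 had 11925 for YY1 with its summit 134 bp inside HCFC1, which encodes a transcriptional coregulator. In each of these 3 pairs the highest YY1 summit lay inside a gene.

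Of 14 textbook pairs, 7 met the rule, and the outermost 5′ ends of the other 7 overlap in this annotation. TMEM258/FEN1, with the flap endonuclease of DNA replication, had a ZNF143 score of 19070. SIRT3/PSMD13, a mitochondrial deacetylase and a proteasome subunit, had 2887, with its ZNF143 summit between ends that lie 35 bp apart. PRKDC/MCM4, whose products act in DNA repair and replication, had 429 for ZNF143 and 3842 for NRF1 with the ends 7 bp apart. These distances hold for outermost 5′ ends. Between canonical transcript ends they were 634 bp for SIRT3/PSMD13, 805 bp for PRKDC/MCM4 and 645 bp for PPAT/PAICS. For SARS2/MRPS12 both definitions gave 181 bp. SARS2/MRPS12, a mitochondrial tRNA synthetase and a protein of the mitochondrial ribosome, had 5.61 for ZNF143 and 2678 for YY1. NPAT/ATM, a histone gene activator and the DNA damage kinase, had SP1, NRF1 and YY1 summits (NRF1 score 3301) and no ZNF143 summit. PPAT/PAICS had SP1 at 795 and YY1 at 136 and neither ZNF143 nor NRF1.

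The 3 pairs with the largest distance among those without a summit of any factor were not CpG-rich. MS4A6A/MS4A4A, genes of a family of membrane proteins of blood cells, had a CpG ratio of 0.121, TNS1/RUFY4 one of 0.429 and RBP5/CLSTN3 one of 0.296. At the other end of the range, NEK1/CLCN3, with ends 1 bp apart, had summits of all 4 factors, each inside NEK1.

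Gene lists were compared by the window at the listed gene's own 5′ end. Over all pair genes ZNF143 occupied 975 of 1650 ends (59.1%), and over all other ends 23.0%. Genes of the mitochondrial ribosome, respiratory chain and import made up 49 pair genes, and ZNF143 occupied 41 of these (83.7%) against 104 of 163 listed genes outside pairs (63.8%). ZMAT5/UQCR10, the second a subunit of complex III, had a ZNF143 score of 26923 and an NRF1 score of 11438. FBXO15/TIMM21, the second a part of the mitochondrial import machinery, had 13551 for ZNF143 with that summit 51 bp before TIMM21.

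DNA replication and repair genes showed ZNF143 at 30 of 43 pair ends (69.8%) and 56 of 117 others (47.9%). NTHL1/TSC2, a base excision glycosylase and a growth regulator, had a ZNF143 score of 20592, and the summits of its 4 factors lay 48 to 76 bp before TSC2. Splicing and RNA processing genes showed ZNF143 at 29 of 37 pair ends (78.4%) and 57.1% of 177 others. INTS9/HMBOX1, the first an Integrator subunit, had 22573 for ZNF143, and COPE/DDX49, the second an RNA helicase, had 14502. Proteasome and chaperone genes showed it at 15 of 21 (71.4%) and 47 of 102 (46.1%). PSMD10/ATG4A had 8570 and CORO7/DNAJA3 had 3770, the second with 7368 for NRF1. Only 3 tRNA synthetase genes were in pairs, among them RARS2/ORC3 with a ZNF143 score of 2593 and LYRM4/FARS2 with 11.4.

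Zinc finger genes showed ZNF143 at 24 of 34 pair ends (70.6%) and 229 of 469 others (48.8%). The pairs that hold one had a median ZNF143 score of 2056 where occupied, against 42.4 over all occupied pairs. SCGB2B2/ZNF302 had 10291 and MRPL50/ZNF189 had 9959. In each of these 5 lists the pair genes and the other genes of the list were both above the 23.0% of other ends at large.

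For ZNF143, replication-dependent histone genes went the other way. These genes encode the core histones made in S phase, and 26 of 76 were in head-to-head pairs, 13 pairs in which both genes are histones, with a median distance of 236 bp. Of these 13 pair regions, 1 was CpG-rich, against 677 of the 825 regions, and the part of CpG class was not tested. ZNF143 occupied 2 of 26 histone ends in pairs (7.69%) and 20 of 49 outside (40.8%). SP1 stood at 21 of the 26 (80.8%), against 84.7% of all pair genes and 67.3% of histone ends outside pairs. YY1 stood at 16 (61.5%), against 78.7% and 63.3%, and NRF1 at 10 (38.5%), against 71.6% and 55.1%. H2AC25/H2BC26, the CpG-rich pair among them, had an SP1 score of 3644 between the ends and a ZNF143 score of 13.0 inside H2AC25. H2BC21/H2AC20 had 3669 for SP1 and 3.84 for ZNF143. Collagen IV genes, the other family known for head-to-head copies, gave 2 pairs with no ZNF143 summit. Pairs whose genes have like symbols or are both histones numbered 30, with the 13 histone pairs among them. Of the 30, 11 held ZNF143 in their region and 12 regions were CpG-rich, against 552 and 677 of the 825 regions. The histone pairs gave 2 of the 11 and 1 of the 12. These lists are small, the genes were chosen with earlier results of these data known, and no test was made of any list.

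**Figure D5:**
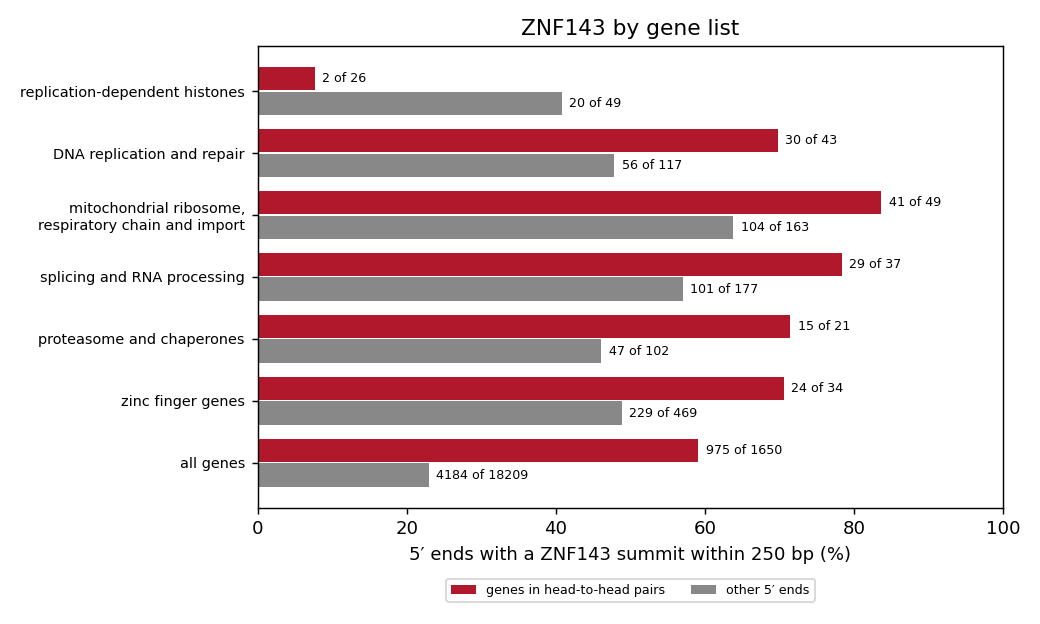
Share of 5′ ends with a ZNF143 summit within 250 bp (%), for genes in head-to-head pairs and for other 5′ ends, by gene list, with counts beside the bars. Pair genes stand above the other ends in each list shown but the histones, where 2 of 26 pair ends and 20 of 49 other ends held a summit.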

How the data were processed

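ChIP-seq of ZNF143 (HA tag), SP1, NRF1 and YY1 was taken from 4 summit lists deposited by the authors. Their column 5 is a −log10 p-value or q-value, from the values deposited, and which of the 2 is not stated. It starts just above 2 in each list, grows with depth and was compared only within a list. Per the submitters' processing notes, cutadapt, Bowtie2, SAMtools 1.16.1, MACS3, bedtools and hg38 were used, with no settings or order given. Labels name the ZNF143 and the SP1 list for control and dTAG samples alike, and the NRF1 and YY1 lists were matched by the antibody in their names. Mock samples were not analysed here. Depth is unknown, and promoter intervals cover counting error only.

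Outermost 5′ ends came from GENCODE 44 and sequence from hg38, read with Python 3.11.15 and pysam 0.24.0. Candidate pairs were joined to the nearest partner, which left 60 genes without one, and 18 other ends whose windows overlap a pair region were dropped. Shares carry Wilson intervals and differences Newcombe intervals, both at 95%, and a difference was called where its interval left out 0. The code was tested on simulated data. Letters were matched exactly on both strands. A palindromic NRF1 site matches on both and counts as 2 copies. In all, 22 comparisons and their alternatives were computed.

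Named pairs were those with the highest ZNF143 (5), SP1, NRF1 or YY1 (3 each) score, textbook pairs, the smallest and largest distance with 4 factors, the highest NRF1 without ZNF143 (3), the highest ZNF143 in each gene list (2) and the largest distance with no factor (3). The pairs just inside and outside the limit were named as well. One textbook pair is not reported here. The members, lists and named pairs were chosen with earlier results of these data known.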

Additional observations from a re-analysis of the deposited data

How the results depend on the processing

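No paired analysis was possible because the lists give no value per sample, and for the same reason no replicate could be left out. Of 189 alternative values, 161 kept their call. Among these the ZNF143 letters, whose interval included 0 throughout, changed sign at the midpoint (0.598) and in CpG-rich windows (0.209). With windows that hold the other 3 factors, the SP1 difference was 1.13 points (1.55 in CpG-rich windows, -0.310 against divergent lncRNA ends, -0.240 with canonical transcript ends). The NRF1 difference was 1.25 (2.35 in CpG-rich windows, 1.13 at equal list length, 2.01 against divergent lncRNA ends, -3.03 with canonical ends). The YY1 difference was -0.575 (-1.21 in CpG-rich windows, 2.52 at equal list length, -0.127 against divergent lncRNA ends, -3.89 with canonical ends), and the last left out 0 (-6.98 to -1.49). YY1 against divergent lncRNA ends in CpG-rich windows gave 2.22. With a half-width of 100 bp, the upstream difference was 3.67 points for ZNF143 and 4.18 for YY1. Against divergent lncRNA ends it was 3.15 for ZNF143 and 2.85 for SP1, and at the minus-strand end of pairs 4.24 for ZNF143, -0.121 for SP1 and 0.348 for NRF1. In CpG-rich windows the SP1 letters gave -2.85 points and TATAAA -1.06. The CCAAT difference left out 0 at the minus-strand end (7.31), at the midpoint (5.85), in CpG-rich windows (4.65) and with canonical ends (5.01). The causes were not tested. The ZNF143 occupancy difference ranged from 6.05 to 43.9 points over 20 alternatives and left out 0 in each, and the range for no factor was -43.7 to -4.65 points. Pairs depend on the annotated end: canonical transcripts gave 913 pairs, of which 498 are among the 825. Unknown depth limits what an absent summit says.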
